A study of Oryza sativa with 4 samples.

Results

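Rice chromosome 11 was followed locus by locus in young panicles of emf2b plants and of wild-type (WT) plants. Its members are all deposited loci whose identifier starts with LOC_Os11g, taken in order of locus number, which makes 3214 of 45027 loci. The chromosome was chosen because earlier results on these same libraries had shown more loci higher in emf2b there than elsewhere. Its overall share of such loci is therefore given as a description with no test, and the rule has no threshold on values. Of the 3214 loci, 1308 held enough reads to be tested, among 22615 tested loci of the genome.

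The samples were emf2b plants (genotype emf2b-1, 2 libraries) and WT plants (2 libraries), all of the cultivar Dongjin. Panicles were at inflorescence stage 7, with a length of 0.3 to 1.5 cm, and all plants grew in a greenhouse with days of 30°C and nights of 25°C. RNA was amplified from 10 ng before sequencing. The protocol text of all samples names wild-type tissue, so genotypes were taken from the genotype label. The libraries carry barcodes, GAGT and TTAG for emf2b and ACCC and CGTA for WT. Nothing in the labels says that the libraries of a genotype came from separate plants, so p-values measure the spread between these libraries, which may be technical.

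EMF2B is known as a subunit of Polycomb repressive complex 2, which places methyl groups on lysine 27 of histone H3. That mark is associated with genes held silent, and in plants it covers many developmental regulators that are off in a given tissue. Chromosome 11 of rice is known for clusters of disease-resistance-type genes and for tandem arrays, in which near-identical copies lie beside each other. A segment at the end of its short arm is duplicated on chromosome 12. Reads of such copies can be split between them or counted for the wrong one, so the values of copies are uncertain.

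Read totals were 12932305 for emf2b GAGT and 16926873 for emf2b TTAG, and the WT libraries ACCC and CGTA held 25382519 and 32087683, so emf2b was read less deeply. The locus named EMF2B (LOC_Os09g13630, a name taken from general knowledge) had 128 and 201 reads in emf2b, against 942 and 1244 reads in WT. Its log2 fold change was -1.83 ± 0.21 (SE, adjusted p = 0.00661, edgeR quasi-likelihood test with Benjamini-Hochberg adjustment over all tested loci), and the adjusted p was 0.0843 when WT CGTA was left out. Of the tissue markers, 6 panicle markers summed to 346 and 353 counts-per-million (CPM) in emf2b and to 444 and 565 CPM in WT. The 4 leaf markers summed to 26.7 and 62.3 CPM in emf2b and to 29.3 and 18.6 CPM in WT. The 3 seed markers summed to 9.05 and 9.22 CPM in emf2b and to 7.41 and 8.66 CPM in WT, and no marker was at 0 in all libraries. In bulk panicles, fewer cells of a type and less RNA per cell cannot be told apart.

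Chromosome 11 as a whole took nearly the same share of the reads in both genotypes. It held 5.24% and 5.20% of all reads in emf2b GAGT and TTAG, and 5.12% and 5.15% in WT ACCC and CGTA. With all loci counted, the summed output of the chromosome thus moved little, while many single loci moved. Chromosome 11 summed to 52412 and 52020 CPM in emf2b, and to 51191 and 51483 CPM in WT. That sum includes LOC_Os11g14220, the alpha-tubulin gene TubA, with 11436 and 13070.3 CPM in emf2b and 15901 and 15601 CPM in WT. The sum of the chromosome was higher in both emf2b libraries than in either WT library, both with TubA and without it.

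At an adjusted p under 0.05, 257 of the 1308 tested chromosome 11 loci (19.6%) were called higher in emf2b and 33 (2.52%) were called lower. Over all tested loci the shares called were 13.5% higher and 2.21% lower. On the other 11 chromosomes the share called higher ran between 10.5% on chromosome 2 and 16.7% on chromosome 10. Both emf2b libraries lay above both WT libraries at all 257 loci called higher, and below both at all 33 loci called lower. With 2 libraries per genotype a call is hard to reach otherwise, so this adds nothing to the calls. The median log2 fold change was 3.95 among the loci called higher and -1.24 among those called lower. When a library was left out, its genotype kept 1 library, which was assumed to vary like the other genotype. Nearly every call named below was lost when a WT library was left out, though no named call changed direction. At an unadjusted p under 0.05, 358 loci were higher and 92 lower with all libraries. Over all tested loci of chromosome 11 the median log2 fold change was 0.15, against medians between -0.05 and 0.06 on the other chromosomes.

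Most loci called higher were weakly read. Of the 257, 209 had a mean under 5 CPM over the 4 libraries, 122 had a mean under 1 CPM, and 15 had no read in either WT library. Of the tested loci, 232 passed the low-count filter through the emf2b libraries alone (17.7%, against 11.4% on the other chromosomes), and 182 of these were among the calls. A locus that passes in this way has to differ, so the calls among these loci support nothing by themselves. Of the 1076 loci that passed otherwise, 75 were called higher (6.97%). On the other chromosomes 932 of 18888 such loci were (4.93%), between 3.79% on chromosome 8 and 5.91% on chromosome 10.

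The chromosome also had more loci silent in WT. No WT read was counted at 835 of its 3214 loci (26.0%), against 20.4% of loci on the other chromosomes, where the range was 16.1% on chromosome 3 to 24.9% on chromosome 10. At such loci emf2b GAGT and TTAG held on average 1.23 and 3.17 reads per locus on chromosome 11, and 1.24 and 3.16 reads per locus on the other chromosomes. The level of scattered emf2b reads at WT-silent loci was thus nearly the same on chromosome 11 as elsewhere. Over all chromosomes the 99th percentile of emf2b reads at WT-silent loci was 10 in GAGT and 22 in TTAG. Of the 257 loci called higher, 180 exceeded both of these values. Loci were called in part for their emf2b reads, so this count is a description and no support for the calls.

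Chromosome 11 was also set beside the other chromosomes at matched mean CPM. These shares still hold the loci that passed through emf2b alone, so they too are a description. Tested loci were cut into 10 strata of equal size by their mean CPM over the 4 libraries. In the lowest stratum 46.5% of chromosome 11 loci and 39.4% of other loci were called higher, and in the highest stratum 5.56% of chromosome 11 loci and 2.79% of other loci were. The share was larger on chromosome 11 in each of the 10 strata. With the other chromosomes weighted to the strata of chromosome 11, their share was 16.1%, which would be 211 of 1308 loci. The median log2 fold change of chromosome 11 loci lay on weighted average 0.10 above that of other loci in the same strata. Most of that came from the lowest stratum, where the difference was 0.57, while in the other strata it lay between -0.12 and 0.13. In refits the average difference was 0.21 without WT ACCC, 0.17 without emf2b GAGT and 0.09 without emf2b TTAG. Computed another way, as the log2 ratio of 1 emf2b library to the WT mean over the same loci and strata with 0.5 added to each normalized CPM, the difference was 0.03 for GAGT and 0.08 for TTAG.

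Matching on the WT level instead of the mean of both genotypes left little difference. Weighted to strata of WT mean CPM, 18.3% of loci on the other chromosomes were called higher, which would be 239 of 1308 loci. In the stratum with the lowest WT level 82.1% of chromosome 11 loci and 82.2% of other loci were called higher. WT means there were at most 0.239 CPM, under the filter's cutoff of 0.473 CPM, so these loci needed emf2b reads to be tested. Both shares were thus largely set by the filter, and their likeness says nothing about the chromosome. The median log2 fold change of chromosome 11 then lay 0.01 above the other chromosomes. The size of the chromosome 11 difference therefore depends on which level is matched.

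**Figure D1:**
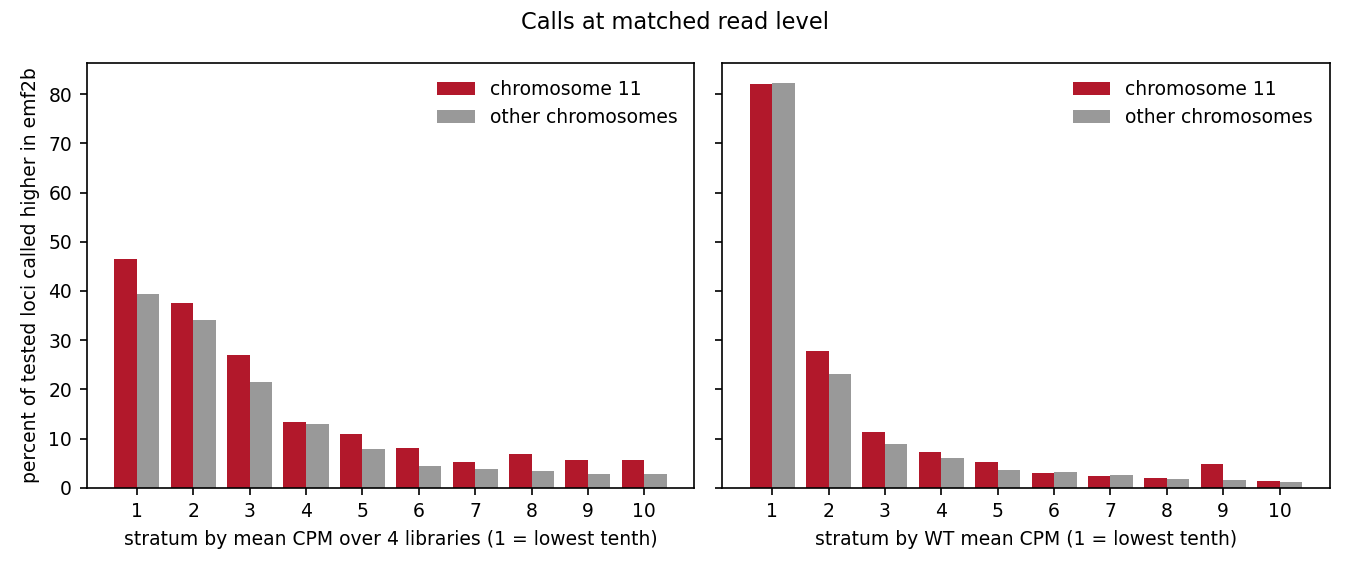
Percent of tested loci called higher in emf2b, for chromosome 11 (red) and the other chromosomes (grey), in 10 strata by mean CPM over the 4 libraries (left) and by WT mean CPM (right). The red bars are taller in every stratum on the left (46.5% and 39.4% in the lowest), and nearly level in the lowest stratum on the right (82.1% and 82.2%). Loci in that lowest WT stratum needed emf2b reads to be tested, so both of its bars were largely set by the filter.

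Among well-read loci, those averaging at least 5 CPM, 48 of 667 on chromosome 11 were called higher (7.20%), and 4.38% of such loci were called higher over the genome. The other chromosomes ranged between 3.49% on chromosome 8 and 5.86% on chromosome 10. The mean covers all 4 libraries, so a locus can enter this set through its emf2b reads alone. LOC_Os11g47809 did so, with 24.4 and 26.2 CPM in emf2b and 0.591 and 0.717 CPM in WT. These shares called higher are therefore a description too. In the same set 27 loci of chromosome 11 were called lower (4.05%, against 3.23% over the genome). The median log2 fold change of the well-read loci was -0.07 on chromosome 11 and -0.12 on the other chromosomes. Of these loci, 10 differed at least 4-fold between the 2 emf2b libraries (1.50%, against 0.626% elsewhere), and 3 differed as much between the 2 WT libraries (0.450%, against 0.351%).

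**Figure D2:**
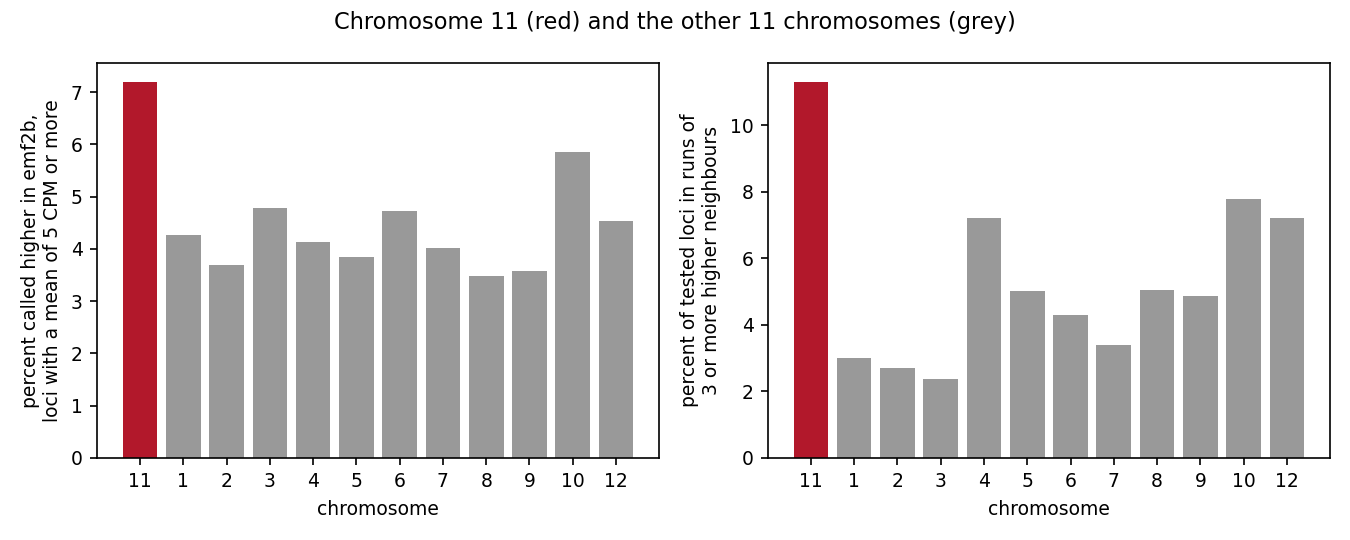
Left, percent of loci averaging at least 5 CPM that were called higher in emf2b; right, percent of tested loci that lie in runs of 3 or more neighbouring loci higher in emf2b; chromosome 11 in red, the other 11 chromosomes in grey. Chromosome 11 has the tallest bar in both panels (7.20% and 11.3%), with chromosome 10 next (5.86% and 7.78%). The share in runs depends on the share of tested loci that met the run condition, which was 28.0% on chromosome 11 and 23.8% on chromosome 10.

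Along the chromosome, the loci higher in emf2b were spread from end to end. The 3214 loci fell into 33 bins of 100 consecutive loci, the last with 14. The median log2 fold change of tested loci was above 0 in 26 bins, and 32 bins had more loci called higher than lower. The exception was bin 20 (LOC_Os11g28570 to LOC_Os11g29780), with 1 called higher and 2 called lower. Over all tested loci of the genome, too, more were called higher than lower (13.5% and 2.21%). The other chromosomes were not cut into bins, so these bin counts are not particular to chromosome 11. Medians of 1 or more were found in 4 bins, all in the middle of the locus order.

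These 4 bins were sparsely read. Bin 16 (LOC_Os11g22580 to LOC_Os11g24340) had a median log2 fold change of 2.08 over 21 tested loci, with 8 called higher. Bin 17 (LOC_Os11g24360 to LOC_Os11g25810) had a median of 2.19 over 34 tested loci, with 16 called higher, the most of any bin. Bin 19 (LOC_Os11g27170 to LOC_Os11g28560) had a median of 1.42 over 31 tested loci, with 12 called higher. In bin 21 (LOC_Os11g29790 to LOC_Os11g31360) the median was 1.89 over 34 tested loci, with 15 called higher. Their well-read loci did not share the height: the medians of those were -0.34 over 7 loci in bin 16, -0.18 over 12 in bin 17, 0.20 over 8 in bin 19 and 0.21 over 11 in bin 21. Across the 32 full bins the median log2 fold change ran against the median mean CPM of the bin, with a Spearman correlation of -0.68. Bins share the 4 libraries, so this correlation is a description.

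Well-read loci alone gave a flatter profile, with a median above 0 in 13 of the 33 bins. The highest well-read medians stood near the far end of the locus order, at 0.47 over 11 loci in bin 31 (LOC_Os11g44460 to LOC_Os11g45899) and 0.58 over 13 loci in bin 32 (LOC_Os11g45908 to LOC_Os11g47944).

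**Figure D3:**
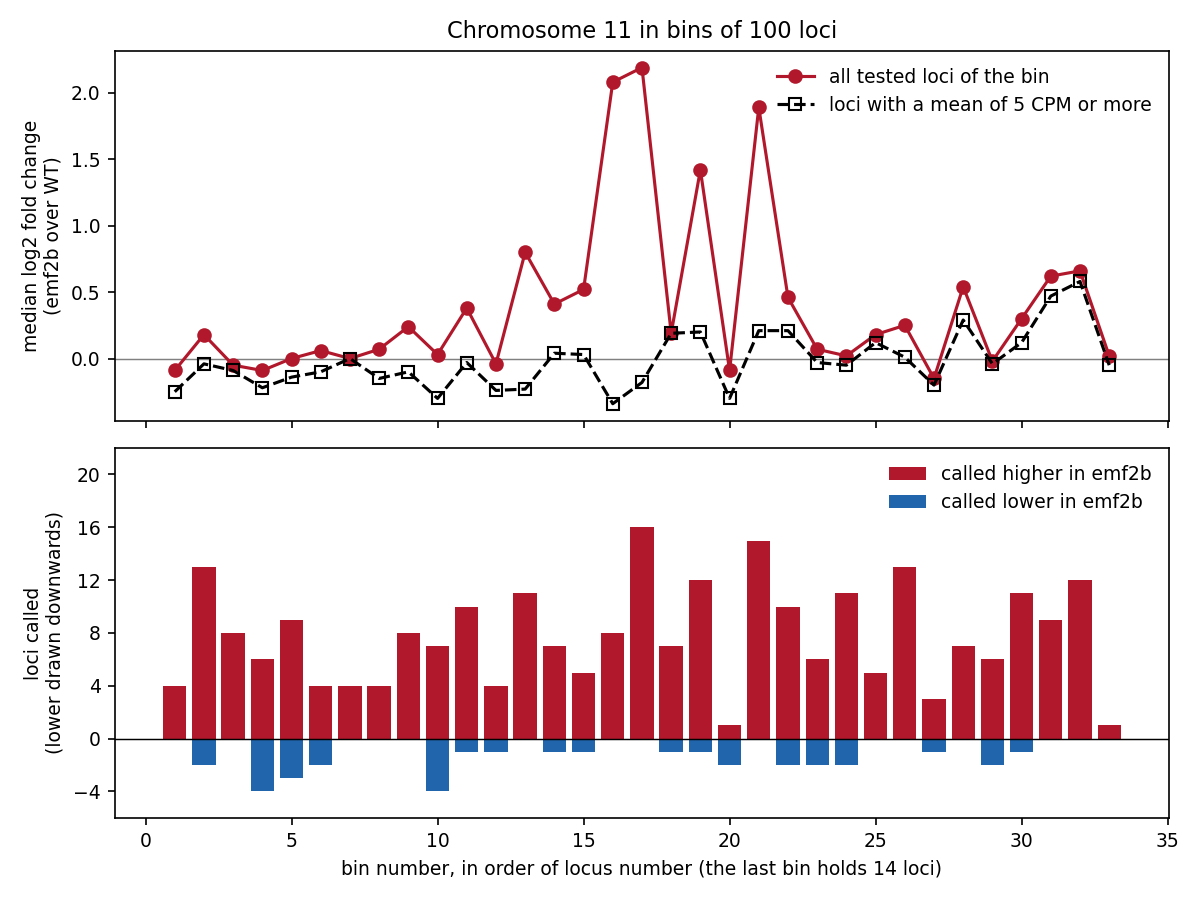
Top, median log2 fold change (emf2b over WT) of all tested loci (red circles) and of loci averaging at least 5 CPM (open squares) in each bin of 100 loci along chromosome 11; bottom, number of loci called higher (red) and called lower (blue, drawn downwards) in emf2b. The 4 red points at 1 or more lie in bins 16, 17, 19 and 21, where the open squares stay between -0.34 and 0.21.

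In several bins 1 locus had a large part in the summed CPM. Bin 3 summed to 1644 and 1297 CPM in emf2b, against 833 and 882 CPM in WT, a ratio of 1.71, and without LOC_Os11g04409 the ratio was 0.978. Bin 2 had a ratio of 1.73, and of 1.31 without LOC_Os11g02330. Bin 10 had a ratio of 0.790, and of 0.981 without LOC_Os11g14220, the alpha-tubulin gene TubA, the largest single contributor there. Bins 21 and 32 kept ratios of 1.37 and 1.35 when their largest contributor was left out (1.48 and 1.42 with it). In other bins the ratio was larger without that locus, for example 1.46 against 1.14 in bin 31 without LOC_Os11g45590. In bin 18 it was 2.45 without LOC_Os11g26850, against 1.48. Bin 18 also holds LOC_Os11g26790, with 798 and 78.2 CPM in emf2b GAGT and TTAG and 10.4 and 10.3 CPM in WT. With all its loci, bin 18 had a ratio to the WT mean of 1.87 for emf2b GAGT and 1.09 for TTAG.

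Neighbouring loci that were higher together were counted as runs: 3 or more consecutive tested loci, each with a log2 fold change of 1 or more and with both emf2b libraries above both WT libraries. On chromosome 11, 366 tested loci met that condition (28.0%, against 19.7% of all tested loci). They formed 37 runs with 148 loci, 11.3% of the tested loci of the chromosome. On the other chromosomes the share in runs was 4.37% over all and ranged between 2.38% on chromosome 3 and 7.78% on chromosome 10. There 19.2% of tested loci met the condition. More loci meeting it make more runs by themselves, so the share in runs is not separate from that share. Clustering beyond it was not tested. With a library left out, the condition that all emf2b libraries lie above all WT libraries is easier to meet. Without WT ACCC the share in runs was 19.6% on chromosome 11 and 9.83% on the others, and without WT CGTA 17.9% and 8.44%. Without emf2b GAGT the share was 18.9% and 8.58%, and without emf2b TTAG it was 7.55% and 3.38%. When an untested locus between 2 members ended a run, it was 2.60% on chromosome 11 and 0.934% on the others. Of the 37 runs, 15 had 3 loci, 11 had 4, 8 had 5, 2 had 6 and 1 had 7. Longer runs existed elsewhere, up to 9 loci. In the opposite direction no run was found: 49 loci met the mirrored condition (3.75%, against 3.34% of all tested loci), and none was next to another.

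After a locus that met the rising condition, the next tested locus could meet it too. It did in 41.8% of 366 cases on chromosome 11 and in 29.4% of 4084 cases elsewhere. The condition was met by 28.0% of all tested loci on chromosome 11 and by 19.2% elsewhere. The gap after such a locus therefore holds the gap in these base shares. Among well-read loci, of which 57 met the condition (8.55%, against 5.22% of all well-read loci of the genome), the next one met it in 13 of 57 cases (22.8%) on chromosome 11 and in 66 of 661 cases (9.98%) elsewhere, with 27.3% on chromosome 10. Neighbouring tested loci correlated in log2 fold change with r = 0.22 over 1307 pairs on chromosome 11 and r = 0.16 on the other chromosomes together, where the range was 0.10 on chromosome 1 to 0.26 on chromosome 4. Among well-read loci r was 0.21 on chromosome 11 and between 0.02 on chromosome 8 and 0.30 on chromosome 10. Neighbours share libraries, read level and, in tandem arrays, sequence.

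Runs were made mostly of weakly read loci. The median mean CPM of the 148 loci in runs was 0.921, against 5.31 for all tested loci of chromosome 11. In 21 of the 37 runs no locus reached a mean of 5 CPM, and in none did every locus reach it. Of the 148 loci, 113 were called higher, 81 had a mean under 1 CPM and 8 had no WT read. At 91 of them both emf2b libraries exceeded the 99th percentile of emf2b reads at WT-silent loci. Members of runs were also picked for their emf2b reads, so that count too is a description.

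The longest run lay near the start of the locus order, from LOC_Os11g02890 to LOC_Os11g03040, with 7 tested loci among 14 deposited ones. Its loci summed to 179 and 289 reads in emf2b GAGT and TTAG, and to 24 and 14 reads in WT ACCC and CGTA. All 7 were called higher, and the lack of overlap between the genotypes is part of the definition of a run. LOC_Os11g02980 carried most of the reads, with 91 and 167 in emf2b and 10 and 6 in WT, a log2 fold change of 4.86 ± 0.50 (SE, edgeR adjusted p = 0.00543). The run stood near the end of the short arm, which shares copies with chromosome 12. Of its other 6 members, LOC_Os11g02890 had 10 and 20 reads in emf2b, and 0 and 1 in WT, a depth-scaled read ratio of 57.7 with an exact 95% interval of 9.60 to 2356. That interval covers counting error only, and its width shows how little the WT reads fix the ratio.

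The next run in length went from LOC_Os11g22449 to LOC_Os11g22940, with 6 tested loci among 41 deposited ones, and lay across bins 15 and 16. It summed to 103 and 309 reads in emf2b and to 27 and 46 in WT. Emf2b TTAG was the higher emf2b library at each of the 6 loci, and none of the 5 loci called here was called without it or without either WT library. LOC_Os11g22530, with 21 and 72 reads in emf2b and 4 and 9 in WT, had the largest log2 fold change at 3.67 ± 0.70 (SE, edgeR adjusted p = 0.0161). LOC_Os11g22940, with 12 and 26 reads in emf2b and 7 and 8 in WT, missed the threshold at an adjusted p of 0.0526.

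The run from LOC_Os11g25160 to LOC_Os11g25510 held 6 tested loci among 21 deposited ones, and all 6 were called. It had more reads than the 3 other runs taken as longest, with 949 and 1213 reads in emf2b and 621 and 740 in WT. LOC_Os11g25160 stood at 48.6 and 56.9 CPM in emf2b, and at 21.6 and 19.0 CPM in WT. Its log2 fold change was 1.34 ± 0.20 (SE, edgeR adjusted p = 0.00960). LOC_Os11g25454 stood at 19.6 and 8.15 CPM in emf2b, and at 2.36 and 3.30 CPM in WT (2.24 ± 0.47 on the log2 scale, SE, adjusted p = 0.0197 by edgeR), with emf2b GAGT the higher of the emf2b libraries. Among well-read loci alone, these 2 and LOC_Os11g25780 formed a stretch of 3 neighbours. The last stood at 35.4 and 12.6 CPM in emf2b and at 4.81 and 4.96 CPM in WT (2.26 ± 0.47 on the log2 scale, SE, adjusted p = 0.0202 by edgeR).

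Of 8 runs with 5 loci, the one with the highest mean log2 fold change was taken as the fourth longest. The run from LOC_Os11g27630 to LOC_Os11g27770 held 5 tested loci among 13 deposited ones, of which 4 were called. It summed to 85 and 191 reads in emf2b and to 4 and 16 in WT. LOC_Os11g27760 had 30 and 82 reads in emf2b and 3 and 2 in WT (a change of 5.26 ± 0.72 on the log2 scale, SE, adjusted p = 0.00789 by edgeR). LOC_Os11g27700 and LOC_Os11g27770 had no WT read, and their 23 and 16 emf2b reads put them at least 14.8-fold and at least 10.3-fold higher over a floor of 3 reads for the WT group. In each emf2b library their reads (7 and 16, and 7 and 9) stayed within the 99th percentile of WT-silent loci. LOC_Os11g27730 was not called, with 7 and 35 reads in emf2b and 0 and 10 in WT.

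The other 5-locus runs were of the same weak kind, apart from a pair. From LOC_Os11g14580 to LOC_Os11g14920 the sum was 73.5 and 29.9 CPM in emf2b and 2.92 and 0.841 CPM in WT, most of it from LOC_Os11g14900 (65.3 and 13.4 CPM in emf2b, 1.73 and 0.499 CPM in WT). From LOC_Os11g38580 to LOC_Os11g38640 the sum was 888 and 1343 reads in emf2b and 508 and 853 reads in WT, with 5 tested loci among 6 deposited ones. There LOC_Os11g38610 stood at 49.6 and 48.6 CPM in emf2b and at 12.5 and 15.9 CPM in WT, with a log2 fold change of 1.76 ± 0.21 (SE, edgeR adjusted p = 0.00686). In that compact group 3 of the 5 loci were called, and the lack of overlap between genotypes is part of the definition of a run.

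The strongest run by reads was the RAB16 cluster, 4 tested loci among 4 deposited ones from LOC_Os11g26750 to LOC_Os11g26790. RAB16 proteins are dehydrins, small hydrophilic proteins that are induced by abscisic acid and drying and accumulate in maturing seeds. The cluster summed to 1002 and 97.3 CPM in emf2b GAGT and TTAG, and to 12.4 and 13.4 CPM in WT ACCC and CGTA. Both emf2b sums lay above both WT sums, which follows from the definition of a run, and the emf2b libraries lay far apart from each other.

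RAB21, also known as RAB16A (LOC_Os11g26790), had 798 and 78.2 CPM in emf2b, and 10.4 and 10.3 CPM in WT. Its log2 fold change was 5.39 ± 1.0 (SE, edgeR adjusted p = 0.0150). Without emf2b GAGT the changes were 2.82 for RAB21, 2.98 for RAB16B and 2.01 for RAB16C, and RAB16C then missed the threshold (adjusted p = 0.0558). RAB16B (LOC_Os11g26780) had 170.3 and 14.8 CPM in emf2b, and 1.02 and 2.43 CPM in WT (5.69 ± 1.12, adjusted p = 0.0176). The pattern of these genes was the same, with GAGT highest, TTAG lower and both WT libraries at the bottom. RAB16C (LOC_Os11g26760) had 32.5 and 2.19 CPM in emf2b, and 0.473 and 0.530 CPM in WT (5.05 ± 1.21, adjusted p = 0.0308). RAB16D (LOC_Os11g26750) did not pass the test, with 0.851 and 2.13 CPM in emf2b and 0.552 and 0.187 CPM in WT (2.07 ± 0.72, adjusted p = 0.103), and here TTAG was the higher emf2b library. The 4 genes are close copies, so reads may be shared among them. Another locus of the dehydrin list, LOC_Os11g26570, lay in a run earlier in the locus order and had 66.2 and 3.54 CPM in emf2b, and 0.630 and 0.748 CPM in WT (5.61 ± 1.29, adjusted p = 0.0265), with a change of 2.25 without GAGT. In all, 4 of the 5 dehydrin-list loci rose, beside 13.5% of all tested loci. The list was drawn up with earlier results of these libraries known. The 3 seed markers summed to 9.05 and 9.22 CPM in the same emf2b libraries and to 7.41 and 8.66 CPM in WT, and their part in the result was not tested.

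**Figure D4:**
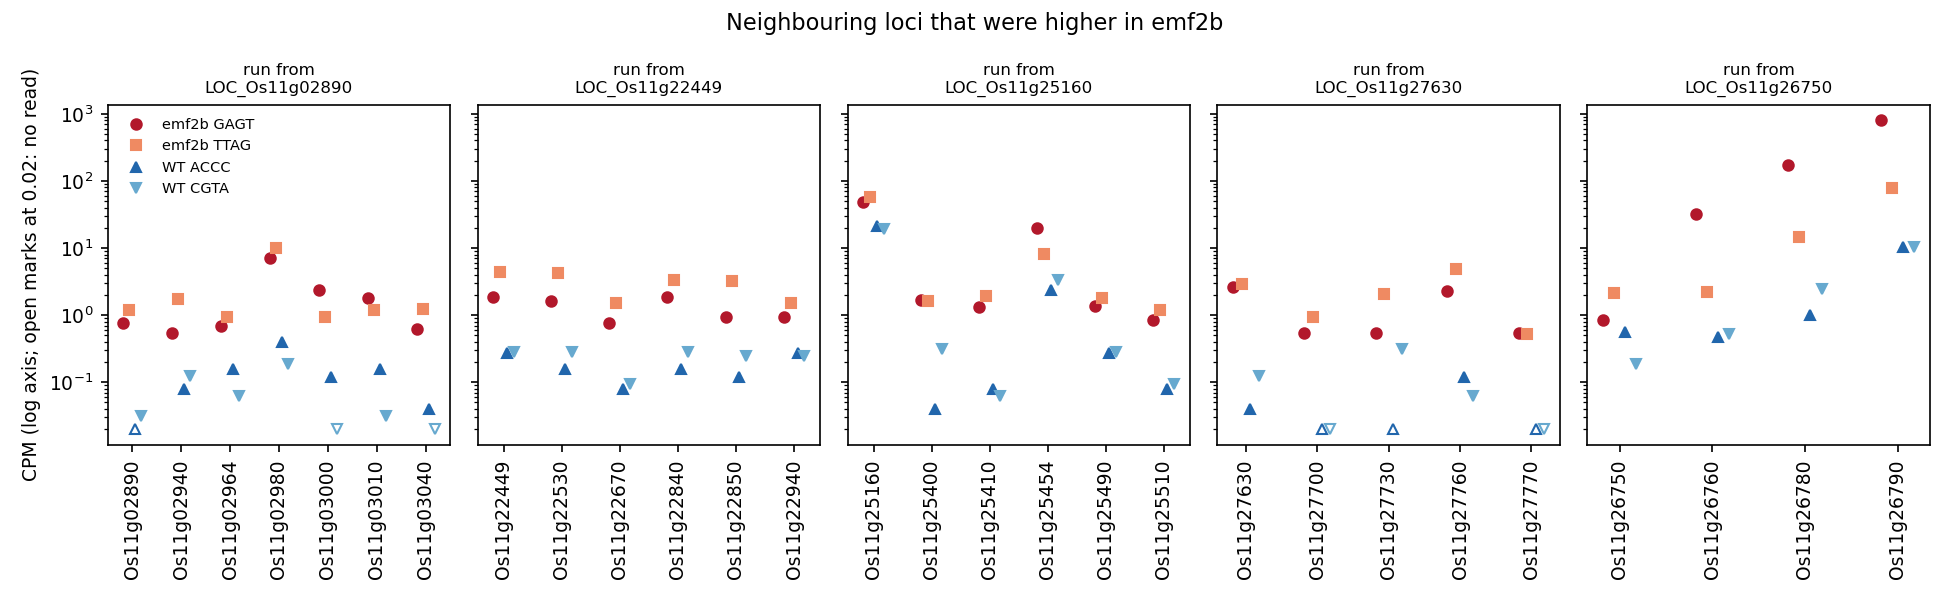
CPM on a log axis of each tested locus in the 4 longest runs and in the RAB16 run (right), with emf2b GAGT and TTAG in red and orange and WT ACCC and CGTA in blue and light blue; open marks at 0.02 stand for libraries with no read. Both emf2b libraries lie above both WT libraries at every locus, as the definition of a run requires, and in the RAB16 run GAGT stands far above TTAG (798 and 78.2 CPM at LOC_Os11g26790).

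Outside the runs, the called loci with the most reads carried no symbol in the gene table used. LOC_Os11g04409 stood at 1025 and 606 CPM in emf2b, and at 192 and 184 CPM in WT, with no overlap (log2 fold change 2.09 ± 0.29 SE, edgeR adjusted p = 0.00856). LOC_Os11g02330 stood at 165 and 322 CPM in emf2b, and at 73.6 and 52.6 CPM in WT (1.91 ± 0.33, adjusted p = 0.0130). At the first, GAGT was the higher emf2b library, and at the second TTAG was. On the lower side, LOC_Os11g07870 stood at 47.8 and 72.1 CPM in emf2b, and at 120.3 and 116 CPM in WT (-1.02 ± 0.22, adjusted p = 0.0218). LOC_Os11g13880 and LOC_Os11g34200 fell by less, with log2 fold changes of -0.73 ± 0.18 and -0.70 ± 0.17 (SE, edgeR adjusted p = 0.0366 and 0.0336), and each of these 2 calls was lost under 8 of 14 alternative settings.

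The largest fitted increases were all at loci with no WT read, where only a lower bound is meaningful. LOC_Os11g15080 had 18 and 30 reads in emf2b, LOC_Os11g05510 had 13 and 35, and LOC_Os11g05790 had 7 and 41, which is at least 30.8-fold higher than the WT floor of 3 reads in each case. LOC_Os11g25740, LOC_Os11g34570 and LOC_Os11g35762 were at least 25.7-fold, 23.7-fold and 18.6-fold higher. The 2 largest decreases were at low WT levels too. LOC_Os11g42880 had 1 and 2 reads in emf2b, and 18 and 31 in WT (a change of -3.04 ± 0.79 on the log2 scale, SE, adjusted p = 0.0330 by edgeR), and LOC_Os11g39200 had 2 and 2 in emf2b, and 26 and 29 in WT (-2.82 ± 0.74, adjusted p = 0.0355). Both calls were lost under 9 of 11 alternative settings, among them DESeq2 (adjusted p = 0.126 for LOC_Os11g42880 and 0.113 for LOC_Os11g39200). Better read was LOC_Os11g15230, with 7 and 43 reads in emf2b and 232 and 242 in WT (-2.40 ± 0.53, adjusted p = 0.0242). LOC_Os11g32100 and LOC_Os11g28184 fell by 1.96 and 1.75 on the log2 scale.

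Of 65 listed chromosome 11 loci, 44 had a gene symbol on chromosome 11 in the RefSeq table, and 33 of these were tested. Among them 5 rose (15.2%, against 13.5% of all tested loci), 1 fell and 27 had an adjusted p above the threshold, with a median log2 fold change of 0.19, against 0.01 for all tested loci. Besides RAB21, RAB16B and RAB16C, the genes that rose were MT1A and RIXI. MT1A (LOC_Os11g47809), a metallothionein, a small metal-binding protein, had 24.4 and 26.2 CPM in emf2b, and 0.591 and 0.717 CPM in WT. The libraries of each genotype lay close together and the genotypes far apart, and the log2 fold change was 5.22 ± 0.30 (SE, edgeR adjusted p = 0.00298). Under all 14 alternative settings MT1A stayed called, with log2 fold changes between 5.09 and 5.35. RIXI (LOC_Os11g47580), a xylanase inhibitor related to chitinases, had 4.87 and 1.30 CPM in emf2b, and 0.236 and 0.0312 CPM in WT (4.51 ± 1.0, adjusted p = 0.0227). Its emf2b libraries differed widely, and both lay above WT.

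The gene that fell was GRF8 (LOC_Os11g35030), a growth-regulating factor of the family of transcription factors active in young growing organs. It had 281 and 372 reads in emf2b, and 916 and 1132 reads in WT (a change of -0.74 ± 0.19 on the log2 scale, SE, adjusted p = 0.0367 by edgeR). The genotypes did not overlap, but the call was lost under 8 of 14 alternative settings.

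Genes of growth and patterning were mostly not called. In the development list 7 of the 12 loci in the table were tested, of which MT1A, a metallothionein placed on that list, rose and GRF8 fell. ARF23, an auxin response factor, had 761 and 1276 CPM in emf2b and 1044 and 1312 CPM in WT, overlapping ranges, with a log2 fold change of -0.25 ± 0.28. PIN1B, an auxin efflux carrier, had 61 and 191 reads in emf2b and 305 and 336 reads in WT (-0.51 ± 0.39). SCR1, a SCARECROW-type GRAS protein, had 3.79 and 5.97 CPM in emf2b and 7.33 and 10.2 CPM in WT (-0.87 ± 0.34, edgeR adjusted p = 0.140), and did not overlap. NPR5, of the NPR1-like protein family, had 0.696 and 1.95 CPM in emf2b and 3.31 and 5.33 CPM in WT (-1.69 ± 0.53, edgeR adjusted p = 0.0730). FON2, known for restraining the size of the floral meristem, had too few reads to test, with 3 and 3 in emf2b and 0 and 0 in WT, beside averages of 1.23 and 3.17 emf2b reads at WT-silent loci of the chromosome.

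Several annotated genes with housekeeping or cell-cycle roles were tested, and none of those named here was called. TubA, the most strongly read locus here, had 11436 and 13070.3 CPM in emf2b and 15901 and 15601 CPM in WT, with a log2 fold change of -0.40 ± 0.35. PDIL1-1, a protein disulfide isomerase, had 3482 and 1983 CPM in emf2b and 2357 and 2651 CPM in WT (0.10 ± 0.33). ADH1, an alcohol dehydrogenase, was at 127 and 107 CPM in emf2b and at 123 and 98.6 CPM in WT (0.04 ± 0.20). Both emf2b values lay below both WT values for TubA, while PDIL1-1 and ADH1 overlapped between the genotypes. The replication genes MCM2, POLD1 and RFC1 had log2 fold changes of -0.24, -0.21 and -0.40, and the retinoblastoma-related gene RBR2 had -0.43.

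Of the stress list, 5 of 8 loci were tested and 3 rose, beside 13.5% of all tested loci. None of the 3 has a symbol in the table used. LOC_Os11g03300 had 94.1 and 35.7 CPM in emf2b, and 6.82 and 9.51 CPM in WT (a change of 2.96 ± 0.46 on the log2 scale, SE, adjusted p = 0.0110 by edgeR). Its copy on chromosome 12, LOC_Os12g03040, had 40.1 and 15.7 CPM in emf2b, and 5.75 and 7.01 CPM in WT (2.09 ± 0.44, adjusted p = 0.0204). In both copies GAGT was above TTAG, and both lay above WT. LOC_Os11g06720 had 15.3 and 39.6 CPM in emf2b, and 6.15 and 3.24 CPM in WT (2.52 ± 0.49, adjusted p = 0.0172), and LOC_Os11g45850 had 12 and 13 reads in emf2b, and 2 and 3 in WT (3.16 ± 0.73, adjusted p = 0.0255). NAC5, a stress-related NAC transcription factor, was not called, with 62.2 and 12.9 CPM in emf2b and 9.42 and 14.7 CPM in WT (1.61 ± 0.64, adjusted p = 0.144). Its TTAG value lay between the WT values.

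Of the resistance list, a gene class for which the chromosome is known, 4 of 6 loci were tested and none was called. Pikm2, a nucleotide-binding leucine-rich-repeat protein of the Pik blast resistance locus, had 13.5 and 14.4 CPM in emf2b, and 11.6 and 3.09 CPM in WT (a change of 0.90 ± 0.54 on the log2 scale, SE, adjusted p = 0.333 by edgeR). LOC_Os11g46200 had 0.928 and 1.30 CPM in emf2b, and 2.21 and 0.0623 CPM in WT, so its WT libraries differed from each other more than the genotypes did. LOC_Os11g11790 and LOC_Os11g11810 had log2 fold changes of 0.26 and 0.12.

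In the photosynthesis and meiosis lists 1 of 3 and 1 of 2 tested loci were called, both lower, beside 2.21% of all tested loci. From the photosynthesis list, LOC_Os11g13890 had 31.6 and 44.1 CPM in emf2b, and 74.0 and 91.9 CPM in WT (a change of -1.17 ± 0.22 on the log2 scale, SE, adjusted p = 0.0150 by edgeR). RCA, the activase of the carbon-fixing enzyme Rubisco, had 15 and 10 reads in emf2b and 1 and 9 in WT, and was not called (adjusted p = 0.131). From the meiosis list, LOC_Os11g04954 had 5.72 and 2.66 CPM in emf2b, and 19.9 and 10.4 CPM in WT (-1.91 ± 0.47, adjusted p = 0.0338), and its call was lost under 8 of 14 alternative settings. DMC1A, the chromosome 12 copy paired with it (LOC_Os12g04980), which acts in meiotic recombination, had 0.696 and 0.473 CPM in emf2b, and 2.17 and 1.43 CPM in WT (-1.67 ± 0.58, adjusted p = 0.104).

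**Figure D5:**
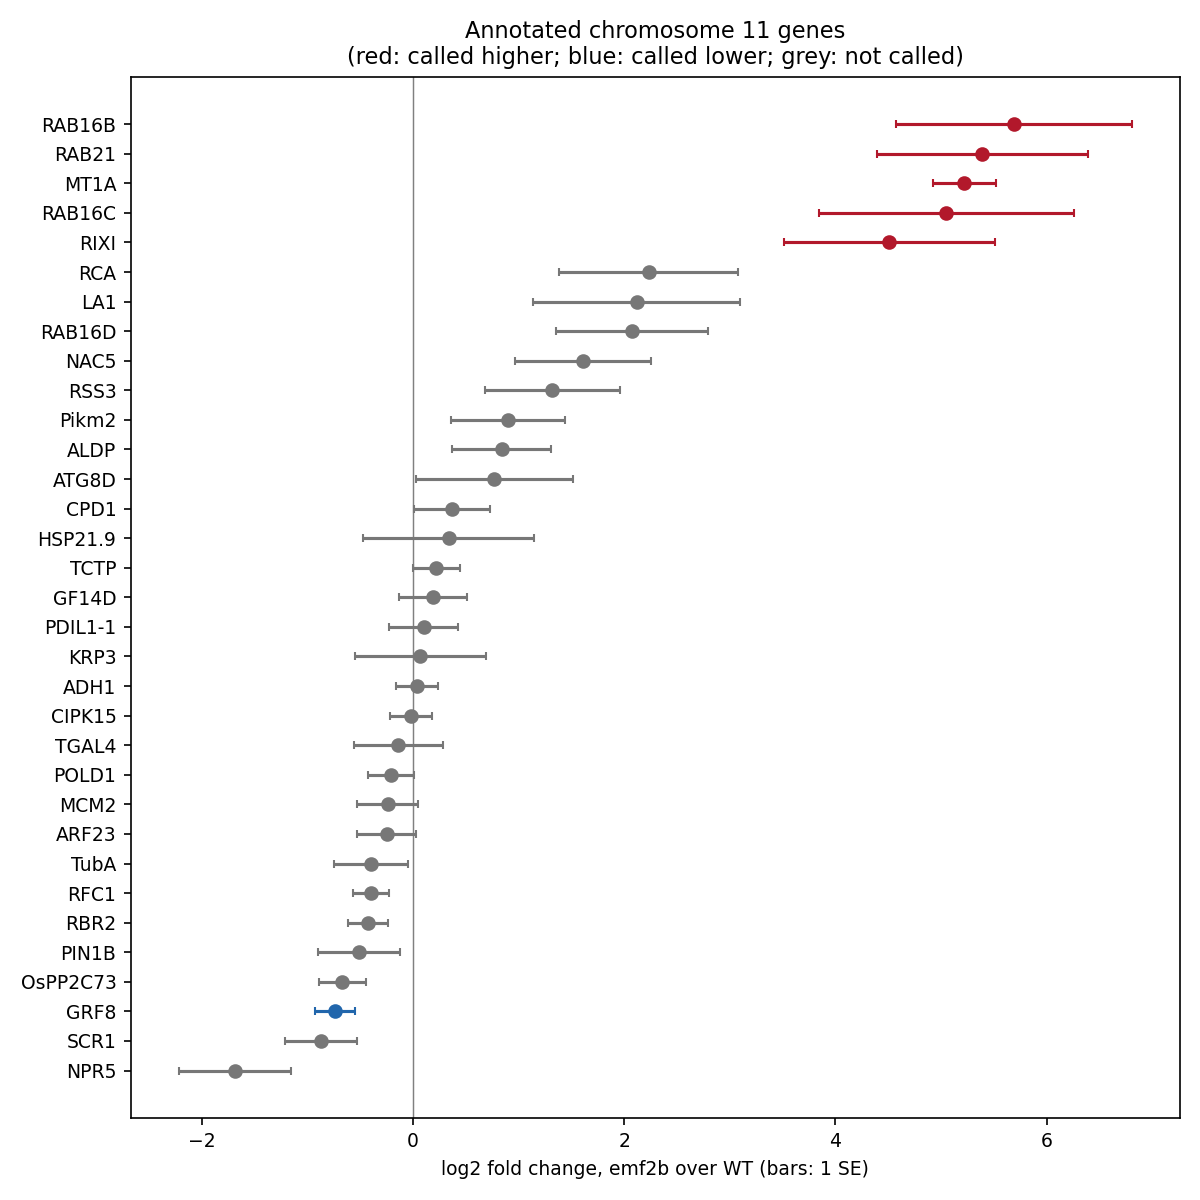
Log2 fold change (emf2b over WT, bars 1 SE) of the 33 tested chromosome 11 genes with a symbol in the RefSeq table, with genes called higher in red, called lower in blue and not called in grey. The 5 red genes lie between 4.51 (RIXI) and 5.69 (RAB16B), and the grey genes between -1.69 (NPR5) and 2.23 (RCA).

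Few calls on the chromosome withstood every change of setting. Of the 257 loci called higher, 227 were also called by DESeq2, 22 without WT ACCC and 5 without WT CGTA. The 5 called under every alternative were LOC_Os11g06070, LOC_Os11g30300, LOC_Os11g31820, LOC_Os11g40340 and MT1A, chosen by that outcome and so after their values were seen. LOC_Os11g06070 stood at 15.5 and 16.0 CPM in emf2b, and at 0.630 and 0.343 CPM in WT (a change of 5.01 ± 0.39 on the log2 scale, SE, adjusted p = 0.00393 by edgeR). LOC_Os11g30300 stood at 18.7 and 18.4 CPM in emf2b, and at 0.749 and 0.810 CPM in WT (4.53 ± 0.31, adjusted p = 0.00298). LOC_Os11g31820 stood at 16.5 and 24.8 CPM in emf2b, and at 0.394 and 0.561 CPM in WT (5.37 ± 0.38, adjusted p = 0.00298), and its well-read neighbour LOC_Os11g31800 at 43.3 and 47.0 CPM in emf2b, and at 5.52 and 11.3 CPM in WT. LOC_Os11g40340 stood at 25.5 and 28.9 CPM in emf2b, and at 1.73 and 2.59 CPM in WT (3.61 ± 0.28, adjusted p = 0.00393). At each of these loci the spread within a genotype was small beside the gap between genotypes. With all alternatives except those that left out a WT library, 19 of the 257 loci stayed called, and none of the 33 loci called lower did. These alternatives included the filter at a mean of 5 CPM, which leaves weaker loci untested. Of the 257 loci, 209 had a mean under 5 CPM, so they could not stay called. With that filter excepted too, 56 of the 257 and 1 of the 33 stayed called.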

How the data were processed

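RNA-seq was run on 4 libraries with 40 cycles of single reads, per the labels' protocols. The authors deposited 1 table of raw read counts per locus, not normalized. The submitters' processing notes name TopHat2 2.0.5 and DESeq 1.10.1. Neither the read counter, the genome build nor the strand setting is given in the sources used here, and overlapping, antisense and near-identical loci cannot be resolved. Columns name a genotype and a barcode, so each was assigned to its group.

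From the counts, loci were filtered with filterByExpr (minimum count 10, minimum total count 15), scaled by TMM and tested with the quasi-likelihood F test of edgeR 4.0.16 in R 4.3.3, two-sided, with 2 residual degrees of freedom. P-values were adjusted by the Benjamini-Hochberg method over all 22615 tested loci, and called loci have an adjusted p under 0.05. The SE is the size of the log2 fold change over the root of F. Counts-per-million (CPM) use library totals. A floor of 3 reads equals 0.232 CPM in emf2b GAGT, 0.177 in emf2b TTAG, 0.118 in WT ACCC and 0.0935 in WT CGTA. Intervals and floors cover counting error only. DESeq2 1.42.0 was an alternative.

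The chromosome, lists and named loci were chosen with earlier results of these data known. Named loci were the members of the 4 longest rising runs (ties by mean log2 fold change), the 6 largest increases and 6 largest decreases among called loci, the 3 higher and 3 lower called loci with the most reads, and the tested list members. A list of 28 annotated loci was added after the files were opened, by symbol alone. Gene names come from general knowledge and are printed where the symbol lies on chromosome 11 in a RefSeq table (assembly ASM3414082v1): 44 of 65 did, 2 only on another chromosome, and 19 were not found. No sequence is shown. The scripts were tested on simulated data.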

Additional observations from a re-analysis of the deposited data

How the results depend on the processing

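The 257 loci called higher and 33 called lower on chromosome 11 became 123 and 14 when loci had to average 1 CPM, 164 and 18 with all libraries thinned to equal depth, and 114 and 10 or 58 and 6 with emf2b counts lowered by the 95th or 99th percentile of emf2b reads at WT-silent loci. When they had to average 5 CPM, a setting chosen after seeing the data, they became 19 and 0, where 48 loci were lower at an unadjusted p under 0.05; DESeq2 on the main filter called 36 lower. Leaving out 1 library gave between 5 and 315 loci called higher and between 0 and 18 called lower, the fewest without WT CGTA, where 48 were lower at an unadjusted p under 0.05. Those fits leave 1 library in an arm, which is assumed to vary like the other genotype. The median difference at matched mean CPM, 0.10, was 0.05 and 0.03 with the filters at 1 and 5 CPM, 0.01 in strata of WT mean CPM and 0.15 with no strata, and between 0.09 and 0.21 in refits with 1 library left out. The share of loci in runs, 11.3%, was 4.25% and 1.35% with the 2 filters, 6.45% after thinning, 5.13% and 3.87% with lowered emf2b counts, 7.87% for runs of 4 or more, 17.7% for runs of 2 or more, 2.60% when an untested locus ends a run, 8.18% at a log2 fold change of 2 or more, and between 7.55% and 19.6% with 1 library left out. The share of bins with a median above 0, 78.8%, was 69.2% in bins of 50 and 88.2% in bins of 200. The cause of these shifts was not tested. No named locus that was called changed direction under an alternative. No paired analysis was possible because the columns carry barcodes and no replicate numbers.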
